A study of Mus musculus with 4 samples.

Results

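The genes described here encode antibody chains and proteins of the cells that secrete antibodies. They are Igha, Ighm, Igk, Igkv6-20, Jchain, Mzb1, Xbp1, Sdc1 and Tnfrsf17, 9 of the 19324 genes on the array, and all 34 probe sets whose platform symbol is or includes one of them were taken. The genes were chosen by these symbols, with the differences of Igha and Igkv6-20 between the groups already known, so every difference given for them is a description with no test of its own. The samples were splenic CD8 T cells of B6 mice, wild-type in genotype, whose RNA was hybridised to 4 Affymetrix arrays. The Ly49+ group (2 arrays) had the phenotype CD44+CD122+Ly49+, CD8 Treg by the labels. The Ly49- group (2 arrays) had the phenotype CD44+CD122+Ly49-, the conventional memory type. No transgene, treatment or age is given for either group. The labels do not say that replicates came from separate animals or sorts, so spreads and p-values cover only the differences between these samples, which may be technical.

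An antibody is built from paired heavy and light chains. B cells carry it at the surface, and once they become plasma cells they make it in bulk and secrete it. The transcription factor XBP1, spliced during the unfolded protein response, expands the endoplasmic reticulum for that output, and the J chain joins IgA into dimers and IgM into pentamers. T cells rearrange the genes of their own receptor and do not secrete antibody, although they use XBP1 and the unfolded protein response as well. In a cell sorted from the spleen, antibody transcripts are abundant in neighbouring B cells and plasma cells.

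Promoter sequence was printed for Jchain and Xbp1, which had an entry among the RefSeq sequences used (build GRCm38.p6) and read far above background on every array. The windows are the 250 bases before each RefSeq start, chr5:88527898-88528147 on the minus strand for Jchain and chr11:5520391-5520640 on the plus strand for Xbp1. Capitals mark ACGT, the core of the sites bound by XBP1 and related factors, which reads the same on both strands.
Jchain: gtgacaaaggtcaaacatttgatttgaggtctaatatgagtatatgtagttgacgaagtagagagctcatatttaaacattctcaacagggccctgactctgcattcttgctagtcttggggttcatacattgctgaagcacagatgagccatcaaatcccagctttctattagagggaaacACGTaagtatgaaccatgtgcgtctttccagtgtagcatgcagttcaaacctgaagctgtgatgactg
Xbp1: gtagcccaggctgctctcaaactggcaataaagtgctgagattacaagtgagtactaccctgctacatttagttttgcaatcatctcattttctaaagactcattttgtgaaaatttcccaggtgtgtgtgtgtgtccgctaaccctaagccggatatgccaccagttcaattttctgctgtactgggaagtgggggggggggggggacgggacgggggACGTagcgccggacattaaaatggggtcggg
ACGT occurred 1 time in each window, 68 bases before the start in Jchain and 31 bases before it in Xbp1, and in 0 places in the windows of Sdc1 and Tnfrsf17. Of 32851 windows of this length, 26.9% held ACGT. The octamer ATTTGCAT, known from antibody gene promoters and searched on both strands, was in none of these 4 windows and in 1.60% of all windows. These matches describe the letters in the windows and show no binding.

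The arrays were alike in overall level. Their median intensities lay between 188.5 and 190.4, and pairwise Pearson correlations of log2 values between 0.996 and 0.998. Klra7, which encodes a Ly49 receptor, read 8969 and 8895 on the Ly49+ arrays, against 910 and 900.1 on the Ly49- arrays (probe set 1426171_x_at). The sort genes Cd8a, Cd8b1, Cd44 and Il2rb had no probe set past the threshold. As a background level, the highest mean among 27 probe sets for Bacillus control transcripts was used, 65.4, and no fold change is given where a group mean lies below it. Ly49- replicate 1 stood apart in one set of controls. Its 9 older probe sets for the hybridisation spikes BioB, BioC, BioDn and CreX read 0.217 to 0.704 times the mean of the other arrays. The newer probe sets bioB-3 and bioC-3 did not read low on it. For bioB-3 the readings were 3022 and 2919 on the Ly49+ arrays, against 3111 and 2833 on the Ly49- arrays. For bioC-3 they were 7102 and 7000, against 7223 and 7038. Newer probe sets for BioDn and CreX were not examined here. The Igha and Igkv6-20 differences and the counts of the gene lists are therefore also given without that array.

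Of the 34 probe sets, 27 had a mean over the 4 arrays above the Bacillus control level and 7 below it. In the fit over 45037 probe sets, 1 of the 34 was past the threshold (limma, adjusted p under 0.05) and lower in Ly49+ cells, and 0 were past it and higher, with 6 at an unadjusted p under 0.05, where 13.3% of all probe sets were. Over all probe sets, 0.429% were past it and lower and 0.766% past it and higher. Nothing is read from the members' count, because the choice of genes used the same contrast. The arrays of the groups did not overlap in 6 of the 34 with Ly49+ lower, where 29.1% of all probe sets did the same, and in 1 with Ly49+ higher, where 15.7% did. The 34 differences were evenly divided in sign, 17 negative and 17 positive. Their median was 0.00 on the log2 scale, against -0.03 over all probe sets, and they ran from -1.11 to 0.56. Summed intensity of the 34 was 69325 and 70894 on the Ly49+ arrays and 73571 and 69815 on the Ly49- arrays, so the sums of the groups overlapped. These sums rest largely on Igk 1452557_a_at, Ighm 1427351_s_at, Ighm 1427329_a_at and Jchain, with means of 18685, 14472, 9186 and 7082. The Igha probe sets, with means of 583 to 1011, weigh little in them.

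**Figure D1:**
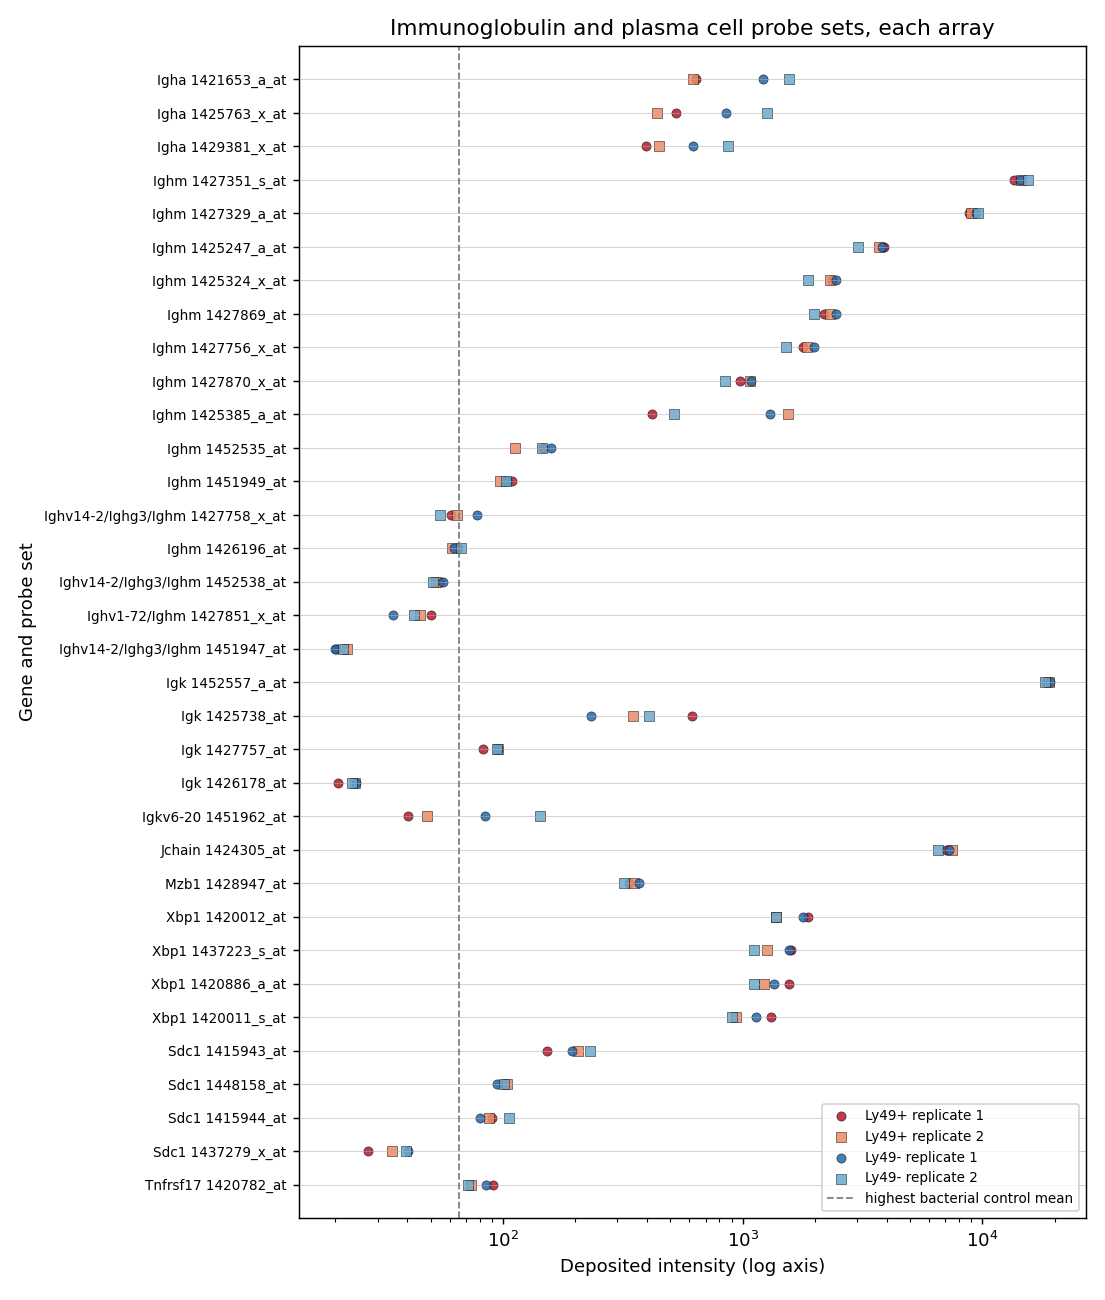
Deposited intensity (log axis) of the 34 probe sets, one row per probe set, on the 2 Ly49+ and 2 Ly49- arrays; the dashed line is the Bacillus control level of 65.4. The Ly49+ points of the 3 Igha rows and of Igkv6-20 lie left of the Ly49- points, while the rows of Ighm 1427351_s_at, Igk 1452557_a_at and Jchain have all 4 points close together.

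Igha, the constant region of the IgA heavy chain, was lower in Ly49+ cells on all 3 of its probe sets. Probe set 1421653_a_at read 642 and 622 on the Ly49+ arrays, against 1222 and 1557 on the Ly49- arrays. Both Ly49+ readings lay below both Ly49- readings. The group means were 632 ± 14.0 and 1389 ± 237 (SD, n = 2 each), a log2 difference, Ly49+ minus Ly49-, of -1.11 ± 0.12 (SE), which is a 2.15-fold higher level in Ly49- cells on the log2(intensity + 16) scale. This was the probe set past the threshold. Probe set 1425763_x_at read 530 and 440 on the Ly49+ arrays, against 850 and 1259 on the Ly49- arrays (log2 difference -1.07 ± 0.18). Probe set 1429381_x_at read 395 and 449 on the Ly49+ arrays, against 619 and 868 on the Ly49- arrays (-0.78 ± 0.16). Neither set of readings overlapped between the groups. Names ending in _x_at mark probe sets that may also detect near-identical transcripts, as antibody genes have, so the readings of these last probe sets are uncertain as to the gene. Ly49- replicate 2 gave the highest reading on every Igha probe set. Without Ly49- replicate 1, the differences were -1.28, -1.35 and -1.02 in the same order, and without Ly49- replicate 2 they were -0.93, -0.80 and -0.54. Without Ly49+ replicate 1 or Ly49+ replicate 2, the difference of 1421653_a_at was -1.13 or -1.08. It passed the threshold without Ly49- replicate 1 and not without any other array, and since Igha was chosen on this contrast, none of these calls is a test of it. In such sorted bulk RNA, fewer cells of a type and less RNA per cell cannot be told apart.

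Igkv6-20, a kappa light chain variable segment, had a pattern of the same direction near the background level. Its probe set read 40.3 and 48.4 on the Ly49+ arrays, against 84.0 and 142 on the Ly49- arrays. The readings did not overlap, and the log2 difference was -1.06 ± 0.21. The Ly49+ mean of 44.3 ± 5.77 lay below the Bacillus control level, so no fold is given beside the Ly49- mean of 113 ± 41.2. Without Ly49- replicate 1 the difference was -1.40, and without Ly49- replicate 2 it was -0.73.

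Ighm, the constant region of the IgM heavy chain, had 15 probe sets, of which 10 lay above the Bacillus control level and 4 also carry the symbols of Ighv14-2 and Ighg3 or of Ighv1-72. None was past the threshold. Probe set 1427351_s_at read 13508 and 14523 on the Ly49+ arrays, against 14415 and 15442 on the Ly49- arrays, so the groups overlapped (log2 difference -0.09 ± 0.05). Probe set 1427329_a_at read 8757 and 8984 on the Ly49+ arrays, against 9385 and 9617 on the Ly49- arrays (-0.10 ± 0.04). Here the groups did not overlap, with Ly49+ cells at 0.934 of the Ly49- level on the log2(intensity + 16) scale. The 5 probe sets 1425247_a_at, 1425324_x_at, 1427869_at, 1427756_x_at and 1427870_x_at differed by 0.03 to 0.16, and each had its lowest reading on Ly49- replicate 2. For 1425247_a_at the readings were 3876 and 3720 on the Ly49+ arrays, against 3824 and 3016 on the Ly49- arrays (0.16 ± 0.11). Fainter probe sets of Ighm showed no common direction. Probe set 1452535_at read 147 and 113 on the Ly49+ arrays, against 159 and 146 on the Ly49- arrays (-0.22 ± 0.14), and 1451949_at read 109 and 97.2 on the Ly49+ arrays, against 104 and 103 on the Ly49- arrays (-0.01 ± 0.11). The 5 probe sets below the control level had differences between -0.05 and 0.22. Among these, 1427851_x_at, shared with Ighv1-72, was the probe set of the 34 whose Ly49+ readings (50.2 and 44.9) both lay above its Ly49- readings (34.7 and 42.6).

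One Ighm probe set varied widely between replicates. Probe set 1425385_a_at read 417 and 1544 on the Ly49+ arrays, against 1300 and 518 on the Ly49- arrays. The high and low arrays fell across the groups, one of each in either group, and the log2 difference was -0.03 ± 0.61. The SD between replicates, pooled over both groups on the log2 scale, was 1.13, larger than in 99.96% of 29948 probe sets above the control level. Its lowest and highest arrays differed 3.70-fold, against 1.14-fold for Ighm 1427351_s_at and 1.10-fold for 1427329_a_at, which read brighter. The symbol Ighm does not say which part of a transcript a probe set reads. This spread is therefore not assigned to the IgM constant region.

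Igk, the kappa light chain locus, is read by 4 probe sets, none past the threshold. Probe set 1452557_a_at read 18461 and 18913 on the Ly49+ arrays, against 19090 and 18275 on the Ly49- arrays. Both Ly49+ readings lay between the Ly49- readings, and the log2 difference was 0.00 ± 0.04. Probe set 1425738_at read 616 and 349 on the Ly49+ arrays, against 233 and 407 on the Ly49- arrays (0.56 ± 0.31). This was the largest positive difference among the 34, and the groups still overlapped, with a pooled SD of 0.55, larger than in 99.59% of the 29948. Probe set 1427757_at read 82.6 and 95.8 on the Ly49+ arrays, against 95.4 and 94.8 on the Ly49- arrays. Probe set 1426178_at stayed below the control level on all arrays.

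Jchain, the joining chain of polymeric IgA and IgM, read 7033 and 7499 on the Ly49+ arrays, against 7257 and 6541 on the Ly49- arrays. The groups overlapped and the log2 difference was 0.08 ± 0.06. Mzb1, a protein of the endoplasmic reticulum that aids antibody assembly in B cells and plasma cells, read 336 and 351 on the Ly49+ arrays, against 368 and 320 on the Ly49- arrays (0.00 ± 0.11). The groups overlapped for Jchain and Mzb1, and did not on the Igha probe sets. Whether the differences of Igha and Jchain differ from each other was not tested.

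**Figure D2:**
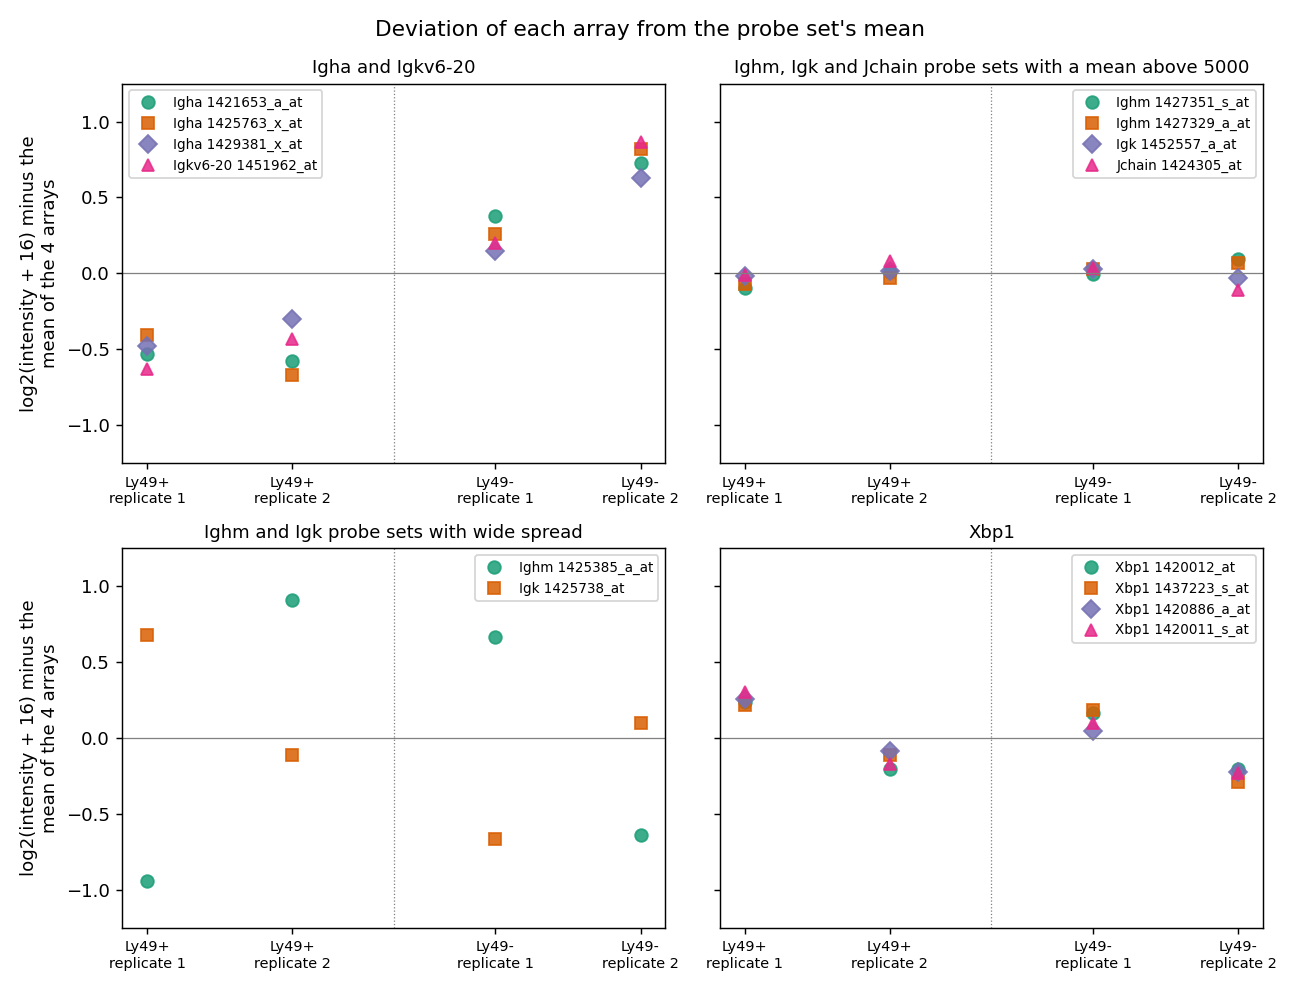
Each array's log2(intensity + 16) minus the probe set's mean of the 4 arrays, Ly49+ arrays left and Ly49- arrays right of the dotted line, for 14 probe sets in 4 panels. Igha and Igkv6-20 lie below 0 on both Ly49+ arrays and above it on both Ly49- arrays; the Ighm, Igk and Jchain probe sets with a mean above 5000 stay near 0; the wide-spread Ighm and Igk probe sets cross 0 within each group; and Xbp1 lies higher on replicate 1 than on replicate 2 in both groups.

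Xbp1 was read by 4 probe sets with overlapping groups in each. Probe set 1420012_at read 1869 and 1375 on the Ly49+ arrays, against 1778 and 1376 on the Ly49- arrays (log2 difference 0.04 ± 0.17). Probe set 1420886_a_at read 1566 and 1232 on the Ly49+ arrays, against 1352 and 1118 on the Ly49- arrays (0.17 ± 0.14). In all 4 probe sets the replicate 1 array was above the replicate 2 array in both groups, a pattern seen in 27.7% of the 29948 probe sets above the control level. The other 2 probe sets, 1437223_s_at and 1420011_s_at, differed by 0.11 and 0.13 between the groups. The labels give no shared batch for arrays of the same number. The probes do not separate the spliced from the unspliced Xbp1 transcript in the files used here.

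The surface proteins of plasma cells read near the control level. Sdc1, the proteoglycan syndecan-1 (CD138) used to sort plasma cells, read 153 and 205 on the Ly49+ arrays, against 194 and 230 on the Ly49- arrays for probe set 1415943_at (-0.23 ± 0.16). Its groups overlapped. Probe sets 1448158_at and 1415944_at had group means between 88.6 and 102 and differences of 0.05 and -0.05. Probe set 1437279_x_at did not overlap between the groups, at 27.4 and 34.5 on the Ly49+ arrays and 40.0 and 39.4 on the Ly49- arrays, all below the control level. Tnfrsf17, the receptor BCMA through which plasma cells receive survival signals, read 90.9 and 73.9 on the Ly49+ arrays, against 84.7 and 71.6 on the Ly49- arrays (0.06 ± 0.13). Both genes therefore lay close to background in both groups, apart from the first Sdc1 probe set.

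A further 33 probe sets carry other immunoglobulin symbols, variable segments for the most part, and 25 lay above the control level. None was past the threshold, 2 had an unadjusted p under 0.05 (13.3% of all probe sets had one), and their median difference was -0.06, within -0.56 to 0.28. Groups did not overlap in 7 with Ly49+ lower and in 6 with Ly49+ higher, where 29.1% and 15.7% of all probe sets did the same. Without Ly49- replicate 1, none was called and the median was -0.03, and without either Ly49+ array 1 was called lower. A probe set shared by Igkc, the kappa constant region, and 4 other kappa symbols (1427455_x_at) read 19637 and 19819 on the Ly49+ arrays, against 19968 and 19492 on the Ly49- arrays. The lambda probe set of Iglc1 and Iglv1 (1424931_s_at) read 6198 and 6328 on the Ly49+ arrays, against 5756 and 6682 on the Ly49- arrays. These light chain readings overlapped between the groups, as those of Igk 1452557_a_at did. The probe set Igkv8-30 1452463_x_at read 16488 and 17095 on the Ly49+ arrays, against 14898 and 15943 on the Ly49- arrays, without overlap (0.12, limma adjusted p = 0.285). Near-identical family members can share probes, so none of these readings is assigned to one segment with certainty.

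Wide spread between replicates recurred among the variable segments. Of the 25 other immunoglobulin probe sets above the control level, 6 had a pooled SD above 0.40, the 99th percentile of all 29948, and so did 2 of the 27 members above it. The median pooled SD was 0.18 for the members, 0.13 for the other immunoglobulin probe sets and 0.08 over all. Igkv6-14 1427860_at read 209 and 1065 on the Ly49+ arrays, against 685 and 566 on the Ly49- arrays. Igkv6-15 1427859_at, which the platform annotation gives the same source transcript, read 554 and 1569 on the Ly49+ arrays, against 1110 and 995 on the Ly49- arrays. Both were lowest on Ly49+ replicate 1 and highest on Ly49+ replicate 2. Igk-V21 1427858_at ran the other way, at 3523 and 1475 on the Ly49+ arrays and 3706 and 3079 on the Ly49- arrays (-0.56 ± 0.34, limma adjusted p = 0.536). Igkv9-120 1460423_x_at, from the same source transcript as Igk-V21, read 2508 and 1086 on the Ly49+ arrays, against 2662 and 2125 on the Ly49- arrays. Igkv15-103 1427837_at was likewise lowest on Ly49+ replicate 2. The sixth was Ighg3 1427503_at, of the IgG3 heavy chain, at 776 and 567 on the Ly49+ arrays and 910 and 523 on the Ly49- arrays. Readings of 1427860_at, whose segment is uncertain as said, differed 5.10-fold between the lowest and highest array, while the probe set 1427455_x_at, shared with the kappa constant region, stayed between 19492 and 19968. These probe sets differ in brightness, with means of 631 and 19729, and whether spread depends on brightness was not tested. Cell numbers and their clonal makeup were not measured, and their part in this spread was not tested.

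**Figure D3:**
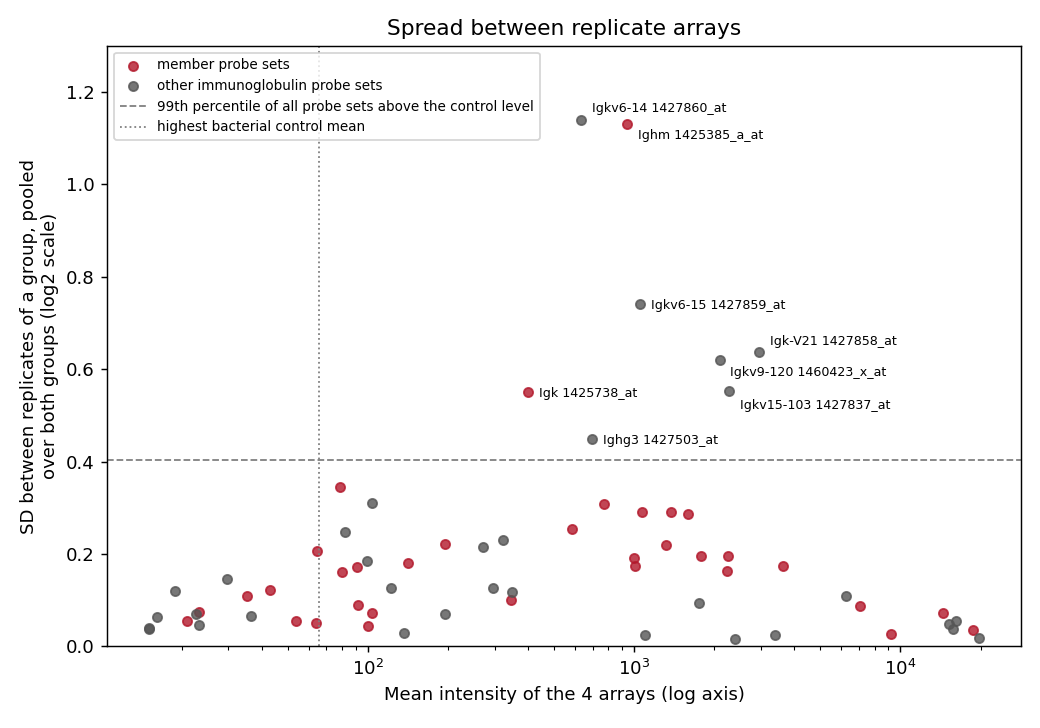
SD between replicates of a group, pooled over both groups, on the log2(intensity + 16) scale, against mean intensity of the 4 arrays (log axis), for the members and the other immunoglobulin probe sets; dashed and dotted lines give the 99th percentile of all probe sets above the control level (0.40) and the control level (65.4). The 8 labelled probe sets lie above the dashed line, 2 of them members (Ighm 1425385_a_at and Igk 1425738_at).

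The regulators of plasma cells are given as a list of genes known to drive or mark that state, of which 15 of 16 symbols were measured by 30 probe sets. None was past the threshold, 5 had an unadjusted p under 0.05 (13.3% of all probe sets had one), and the median difference was 0.05. The count was also 0 without Ly49- replicate 1, with a median of 0.04. Prdm1, which encodes Blimp-1, the repressor that drives plasma cell differentiation and acts in effector CD8 T cells too, read 345 and 470 on the Ly49+ arrays, against 451 and 454 on the Ly49- arrays. Irf4, a transcription factor of plasma cells and activated T cells, read 1726 and 1256 on the Ly49+ arrays, against 2100 and 1620 on the Ly49- arrays (1421173_at; -0.32 ± 0.17, limma adjusted p = 0.471). The groups overlapped for both. Pou2af1, a coactivator of octamer-dependent transcription in B cells, read 2909 and 2889 on the Ly49+ arrays, against 3135 and 2832 on the Ly49- arrays. By the smallest p of the list, Zbtb20 1451577_at, a zinc-finger factor of long-lived plasma cells, had group means of 633 in Ly49+ and 472 in Ly49- cells (0.41 ± 0.11, limma adjusted p = 0.183). Cxcr4, the receptor that holds plasma cells in bone marrow, had a difference of 0.18 (limma adjusted p = 0.196). Il6st 1437303_at, the shared subunit of receptors for IL-6 and its relatives, had 0.26 (limma adjusted p = 0.299), and Tnfrsf13b, a receptor for BAFF and APRIL, had -0.20 (limma adjusted p = 0.370). Brighter probe sets of the same genes differed less: Zbtb20 1438443_at (mean 5314) by 0.16 and Il6st 1452843_at (mean 8920) by 0.03.

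Genes of the secretory machinery that XBP1 controls were measured by 55 probe sets for all 22 symbols. None was past the threshold, and 4 had an unadjusted p under 0.05 (13.3% of all probe sets had one). The median difference was 0.00 with a range of -0.60 to 0.34. Leaving out Ly49- replicate 1 gave 0 as well and a median of 0.02. Hspa5, the chaperone BiP of the endoplasmic reticulum, read 12935 and 10814 on the Ly49+ arrays, against 12832 and 10752 on the Ly49- arrays (1416064_a_at). Dnajb9, a cochaperone of BiP, read 7134 and 4198 on the Ly49+ arrays, against 6061 and 3484 on the Ly49- arrays (0.25 ± 0.30). Both read higher on replicate 1 than on replicate 2 in each group, as Xbp1 did, and 14 of the 55 (25.5%) did so, against 27.7% overall. Of 9 erythroid probe sets, 6 also did. Edem2 1444335_at, which takes part in the disposal of misfolded glycoproteins, read 57.9 and 64.7 on the Ly49+ arrays, against 101 and 101 on the Ly49- arrays (-0.60 ± 0.11, limma adjusted p = 0.0545). The Ly49+ mean of this probe set, 61.3, lay below the Bacillus control level. The other Edem2 probe set, 1423695_at, with a mean of 1642 over all arrays, differed by -0.15. The next by p were Ern1 1438583_at, the sensor IRE1 that splices Xbp1 (0.34, limma adjusted p = 0.272), Edem1 1424065_at (-0.17, limma adjusted p = 0.311) and Herpud1 1435626_a_at (0.19, limma adjusted p = 0.371). For Ern1, the brighter probe set 1437119_at (mean 593, against 182) differed by 0.09.

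**Figure D4:**
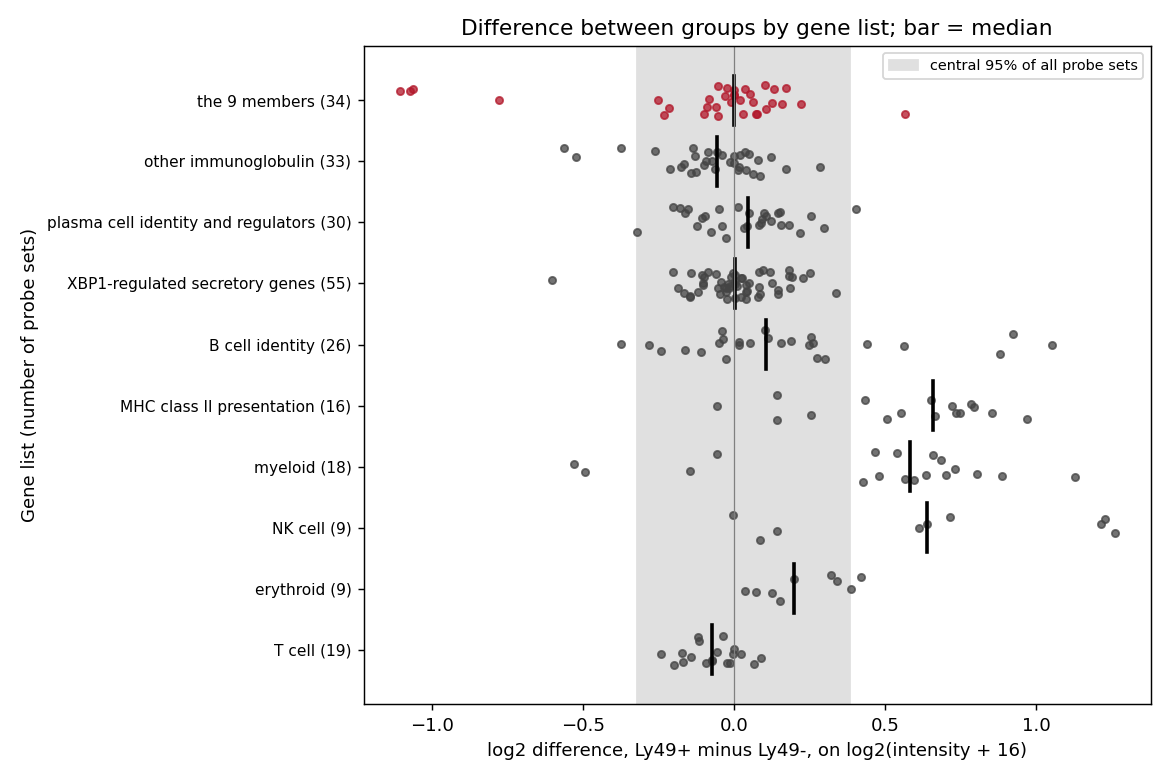
Log2 difference, Ly49+ minus Ly49-, of each probe set by gene list (number of probe sets in brackets), with the list's median as a bar and the central 95% of all probe sets (-0.32 to 0.38) shaded. The 9 members centre on 0.00 with Igha and Igkv6-20 at the left, and the MHC class II, myeloid and NK cell lists centre between 0.58 and 0.66.

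Markers of other cell types differed between the same arrays, and their part in the Igha difference was not tested. Of 26 probe sets of B cell genes (15 of 16 symbols measured), 3 rose in Ly49+ cells and 0 fell, with 16 above the control level. Over all probe sets, 0.766% were past the threshold and higher in Ly49+ cells, and 0.429% past it and lower. Cd22, an inhibitory receptor of B cells, rose on both of its probe sets: 1419768_at read 2191 and 2361 on the Ly49+ arrays, against 1082 and 1095 on the Ly49- arrays (1.05 ± 0.07, limma adjusted p = 0.00273). Ms4a1, which encodes CD20, was not past the threshold on its brighter probe set 1423226_at (0.44, limma adjusted p = 0.216). It rose on 1450912_at, at 252 and 308 on the Ly49+ arrays, against 132 and 157 on the Ly49- arrays (0.88 ± 0.14, limma adjusted p = 0.0424). Without each array in turn, 1 of these 3 was called, Cd22 1419768_at. The list's median was 0.12 without Ly49- replicate 1, against 0.11 with all arrays. Cd79b, the signalling subunit of the B cell receptor, read 2050 and 2020 on the Ly49+ arrays, against 2488 and 2462 on the Ly49- arrays, and did not pass (-0.28, limma adjusted p = 0.0961). Tnfrsf13c, the BAFF receptor, did not pass either (-0.37, limma adjusted p = 0.183). Cd79a read 215 and 249 on the Ly49+ arrays, against 190 and 186 on the Ly49- arrays. Both probe sets of Pax5, the identity factor of B cells, lay below the control level on all 4 arrays. Summed intensity of the B cell list was 24999 and 25611 on the Ly49+ arrays and 24345 and 24316 on the Ly49- arrays. These sums rest largely on Cd37 1419206_at and Cd72 1426112_a_at, whose means over the 4 arrays were 10322 and 6390. They are therefore no measure of B cell content.

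The MHC class II list, which B cells share with myeloid cells, rose in Ly49+ cells at 10 of 16 probe sets (median 0.66), among them H2-Ab1 1450648_s_at (0.78, limma adjusted p = 0.00214) and Cd74 (0.65, limma adjusted p = 0.00265). Of 18 myeloid probe sets, 11 rose, among them Lyz2, lysozyme (1.13, limma adjusted p = 0.00457), and 1 fell, S100a9 (-0.53, limma adjusted p = 0.0376). Over all probe sets, the shares past the threshold were 0.766% higher and 0.429% lower. Of 9 NK cell probe sets 5 rose, Fcer1g among them (1.22, limma adjusted p = 0.00188). The probe set of Ncr1 lay below the control level on all arrays. Both Eomes probe sets, 1426001_at and 1435172_at, did not pass (0.09 and 0.14), nor did Itga2 (0.64, limma adjusted p = 0.0749). T cell genes had 0 of 19 past the threshold, 6 at an unadjusted p under 0.05 (13.3% of all probe sets had one), and a median of -0.07. Of the 19 differences, 15 were negative and 4 positive. Groups did not overlap in 9 with Ly49+ lower and in 1 with Ly49+ higher, where 29.1% and 15.7% of all probe sets did the same. Erythroid genes had 0 of 9 past the threshold and 1 at an unadjusted p under 0.05. They summed 21219 and 12730 on the Ly49+ arrays and 16634 and 9940 on the Ly49- arrays. Leaving out single arrays lowered these counts, to 3 to 6 rises for MHC class II, 0 to 4 for myeloid and 1 to 3 for NK cell genes, with medians of 0.62 to 0.69, 0.50 to 0.66 and 0.56 to 0.70. Without Ly49- replicate 1 the rises were 5, 0 and 1 in that order, S100a9 did not pass, and the erythroid and T cell lists had 0 calls with medians of 0.33 and -0.09.

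The probe sets most like Igha 1421653_a_at were ranked by the distance between their deviations over the 4 arrays, among 29947 probe sets above the control level, as a description over 4 arrays. The nearest was Dsg2 1449741_at, a desmosomal cadherin (distance 0.117), at 120 and 131 on the Ly49+ arrays and 250 and 313 on the Ly49- arrays. Stc2 1445186_at, a secreted glycoprotein, was next (0.120), at 542 and 582 on the Ly49+ arrays and 1100 and 1325 on the Ly49- arrays. Ptpn13 1452127_a_at, a tyrosine phosphatase, and Kcna2 1457911_at, a potassium channel, followed (0.179 and 0.214). Igha 1425763_x_at was the fifth (0.216). Igkv6-20 ranked 15 and Igha 1429381_x_at ranked 28, and the next member above the control level was Sdc1 1415943_at at rank 2701. Igha and Igkv6-20 were chosen with their differences on these same arrays known. Their closeness, and the gap to the other members, are therefore no separate result. Apart from the other Igha probe set, none of the 5 nearest is an antibody gene.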

How the data were processed

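Total RNA of 4 samples of sorted splenic CD8 T cells (2 Ly49+, 2 Ly49-) was biotin-labelled for Affymetrix arrays, per the labels' protocols. The deposited values are linear intensities per probe set for 45101 probe sets, with nearly equal array medians; what normalization the authors applied, and with what software, the sources used here do not give. Scanner files were not used here. The platform annotation of 2016 names 34945 probe sets with 1 symbol and 932 with several, and does not list 9160; 64 are controls. All 9 symbols matched RefSeq (GRCm38.p6), which also gave the promoters.

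Intensities were taken as log2(intensity + 16), so fold changes of faint genes are understated, and 45037 probe sets were fitted with limma 3.58.1 in R 4.3.3 (lmFit, eBayes with a trend, no term but group; degrees of freedom 2 residual and 5.05 prior; the R package data.table, version 1.17.8), with Benjamini-Hochberg adjustment over all of them at 0.05. The script was tested on simulated data. The members and gene lists were chosen with earlier results of these data known. Named genes were every member probe set, up to 4 symbols of each list with the smallest p above the Bacillus control level, and the 5 probe sets nearest to Igha; others were named after their values were seen. A few list entries are not reported here. Alternatives were pseudocounts of 1 and 64, quantile normalization, only means of at least 100, the brightest probe set per gene, no _x_at or _s_at probe sets, no trend or a robust spread, a replicate block, and each array left out, where the lone array is assumed to vary like the other group. The number of arrays limits the precision. Same-numbered arrays share only a number, since the labels name no common batch.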

Additional observations from a re-analysis of the deposited data

How the results depend on the processing

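Of the 34 member differences, 3 turned in sign with quantile normalization, all of a size up to 0.01 as reported, and 7, 7, 4 and 13 without Ly49+ replicate 1, Ly49+ replicate 2, Ly49- replicate 1 and Ly49- replicate 2, of a size up to 0.16. None of those was past the threshold or belonged to Igha or Igkv6-20, and 0 turned with a pseudocount of 1 or 64. The remaining alternatives refit the same values and leave each difference unchanged, so no sign could turn there. With the other pseudocounts and quantile normalization, each of the 34 differences moved by less than 1 SD between replicates, with 2 exceptions. These were Igkv6-20 (-0.69) and Sdc1 1437279_x_at (-0.13), which moved with a pseudocount of 64. Leaving out 1 of the 2 arrays of a group cannot move a difference by more than this SD. The size of the shift in those fits is therefore no check. The members past the threshold, all lower in Ly49+ cells, numbered 1 in the reported fit, 0 without a trend of the spread, 2 with a pseudocount of 1, with quantile normalization or with the brightest probe set of each gene (Igha and Igkv6-20 there), and 4 with a replicate block (3 of Igha and Igkv6-20). Leaving out 1 array gave 0 to 1. Over all probe sets the 538 calls became 233 without a trend, 1415 with the replicate block and 31 to 104 without 1 array. Same-numbered arrays deviated together weakly (correlation across probe sets 0.24), so the block rests on a number alone. B cell probe sets past the threshold were 3 in the reported fit (all higher), 2 with a pseudocount of 64 (both higher), 2 with the brightest probe set of each gene (Cd22 higher, Cd79b lower), 1 without a trend, 5 with the replicate block (4 higher, Cd79b lower) and 1 without any one array (Cd22, higher). Leaving out arrays for the MHC class II, myeloid, NK cell, erythroid and T cell lists was chosen after seeing the data. Of the XBP1-regulated list, 1 (Edem2, lower) was called with a pseudocount of 64, quantile normalization or a robust spread, and 2 with the replicate block (Dnajb9 higher, Edem2 lower). Of the regulators, 2 were called with the replicate block (Irf4 lower, Cxcr4 higher). Other immunoglobulin probe sets gave 0 to 1 without 1 array: Igk-V21 without Ly49+ replicate 1 and Igkv6-14 without Ly49+ replicate 2, both lower. Fewer arrays leave fewer degrees of freedom; the cause of the other changes was not tested. Readings near the Bacillus control level, such as Igkv6-20, Sdc1, Tnfrsf17 and Edem2 1444335_at, limit what a difference there can show.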
